A study of Homo sapiens and Mus musculus with 16 samples.

Results

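Cyclins and cyclin-dependent kinases (CDKs) were followed between P-bodies and the cytoplasm. Members were taken by gene symbol, as every CCN symbol with 1 further letter and at most 1 digit and every CDK symbol followed by digits only. The rule found 45 of 22286 symbols in the human count table (26 cyclins and 19 kinases) and 42 of 15881 in the mouse table (24 cyclins and 18 kinases). CCNI2, CCNO and CDK3 were only among the human symbols. P-bodies are cytoplasmic condensates of RNA and protein. Here they were sorted as fluorescent particles that carry GFP fused to the P-body protein LSM14A, and their RNA was sequenced beside that of the unsorted cytoplasm (P-body-seq). By the study's methods, this cytoplasm was a resuspended pellet of the lysate after removal of nuclei, taken before sorting. It thus still held P-bodies and is not the soluble cytosol. There were 16 libraries, 2 of P-bodies and 2 of cytoplasm in each of 4 cell types. HEK293T-LSM14a-GFP is a human embryonic kidney line, and mESC are mouse embryonic stem cells of line KH2-LSM14a-GFP in serum-LIF. Both carried the fusion on a lentiviral construct with an EF1a promoter. UCLA4-LSM14a-GFP, a human embryonic stem cell line with the fusion placed at the AAVS1 locus, was the source of the liver bud progenitors and of the day-20 neurons. Every group thus expressed the fusion, and no untagged cells were part of the comparison. The labels give total RNA for HEK293T and mESC and polyA RNA for liver bud progenitors and neurons, so RNA type and cell type cannot be told apart between these pairs.

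Cyclins bind CDKs and switch on their kinase activity. D-type cyclins with CDK4 or CDK6 and cyclins E, A and B with CDK2 or CDK1 drive successive steps of the cell cycle. Another branch acts on RNA polymerase II: CDK7 with cyclin H, CDK8 or CDK19 with cyclin C in the Mediator complex, CDK9 with cyclin T in the elongation factor P-TEFb, and CDK12 or CDK13 with cyclin K. CDK5 and the PCTAIRE kinases are abundant in neurons, which have left the cell cycle. P-bodies hold messenger RNAs that are little translated, and AU-rich transcripts are known to be over-represented in them.

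The kinases share an alpha helix that docks onto the cyclin, named PSTAIRE after CDK1. The same helix can be spelled with different codons, and 7 codons of it are shown for 6 human kinases, because members with more G or C at the wobble position, the last base of a codon, were more often on the depleted side. Each run is the coding strand, 5′ to 3′, of the GENCODE transcript on hg38. Capitals mark a G or C at a wobble position.
CDK1: cctagtactgcaattcgGgaa
CDK13: ccaattacagcaattcgagaa
CDK17: ccCtgCacagctataagagaa
CDK16: ccCtgCacCgcCatCcgGgaa
CDK9: ccCattacagcCttGcgGgaG
CDK6: ccGctCtcCacCatCcgCgaG
CDK1 (chr10:60784800-60784820, plus strand, exon 3) ended 1 of 7 codons in G or C. CDK13 (chr7:40001914-40001934, plus strand, exon 5) ended none of them so. CDK16 (chrX:47225081-47225101, plus strand, exon 6) and CDK17 (chr12:96298870-96298890, minus strand, exon 7) are paralogs with the same PCTAIRE helix, spelled with 6 and 2 such codons. CDK9 (chr9:127787521-127787541, plus strand, exon 3) used 5 and CDK6 (chr7:92833141-92833161, minus strand, exon 2) used 7. Over the whole coding sequence, G or C took 34.7% of wobble positions in CDK1, 48.9% in CDK13, 37.1% in CDK17, 67.2% in CDK16, 81.5% in CDK9 and 58.9% in CDK6. CDK16 and CDK9 were depleted from P-bodies in all 4 cell types. CDK6, with 7 such codons in the helix, was enriched in 3 of the 4 (in HEK293T not once GC and length trends were removed), while CDK10, which also has 7, was depleted in HEK293T and liver bud progenitors, so the count in the helix did not order the kinases.

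Totals ran from 6368953 to 17972284 counts per library. The smallest detectable level, set at 3 counts, was between 0.167 and 0.471 CPM, which stands for counts scaled to a fixed library total. Members took between 0.215% and 0.656% of the counts of a library. Library values are CPM scaled by TMM within each comparison, log2 changes are P-body minus cytoplasm with their standard error (SE), and p-values are Benjamini-Hochberg adjusted over all genes in edgeR's quasi-likelihood test, two-sided, with 0.05 as the threshold. The replicates were described as biologically independent samples. Marker genes were checked against the labels, in CPM scaled by library total alone and not by TMM. Summed neuron markers ran from 10194 to 10751 CPM in neuron cytoplasm and from 218.5 to 224.4 CPM in liver bud cytoplasm, mouse ES cell markers from 5932 to 5984 CPM in mESC cytoplasm, and hepatic endoderm markers from 431.7 to 447.0 CPM in liver bud cytoplasm, where ALB was at or under 3 counts and pluripotency markers reached 1102 to 1110 CPM. In neurons the proliferation markers summed to 2906 and 3176 CPM in the P-body libraries and to 1280 and 1412 CPM in cytoplasm. Hepatic endoderm markers summed there to 266.0 and 274.6 CPM against 61.3 and 57.3 CPM, with AFP and ALB at or under 3 counts in both. PROX1 alone made up 255.6 and 262.6 CPM of these P-body sums and 57.7 and 54.0 CPM of the cytoplasm sums. Whether dividing cells or cells of other types than the label had a part in the results was not tested.

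The family did not move as a block. In HEK293T 14 of 45 members were enriched in P-bodies (31.1%, against 19.3% of all 21903 genes) and 18 were depleted (40.0%, against 22.8%). In liver bud progenitors 21 of 44 were enriched (47.7%, against 21.4% of 21951 genes) and 9 depleted (20.5%, against 17.1%). In neurons the counts were 9 and 7 of 45 (20.0% and 15.6%, against 14.6% and 14.1% of 22093 genes). In mESC they were 18 and 5 of 42 (42.9% and 11.9%, against 25.8% and 20.6% of 15881 genes). The mESC split moved with the processing, to 13 enriched and 14 depleted when library size was the only scaling, 15 and 10 with filterByExpr, 14 and 9 without GC and length trends, and 15 and 3 with DESeq2, and 3 were depleted without P-body replicate 1 or without P-body replicate 2. The 7 depleted in neurons became 4 without cytoplasm replicate 1, without cytoplasm replicate 2 and with library size only. The members were far more abundant than the average gene, with a median of 49.1 CPM against 2.84 CPM in HEK293T. Among the 30 members with a mean of at least 20 CPM there, 43.3% were enriched and 33.3% depleted, where all genes at that level gave 50.9% and 34.0%. The same shares were 63.0% and 22.2% in liver bud progenitors (all such genes 53.4% and 27.4%), 30.8% and 23.1% in neurons (31.1% and 37.4%), and 62.1% and 13.8% in mESC (54.1% and 25.0%). At matched abundance the members were thus near the background in most of these counts. The median log2 change of the members was 0.21 in mESC (all genes -0.11), 0.15 in neurons (all genes 0.19), 0.28 in liver bud progenitors (all genes -0.09) and -0.05 in HEK293T (all genes -0.01). The fractions did not overlap for 36 of 45 members in HEK293T (all genes 64.8%), 38 of 44 in liver bud progenitors (86.4%, all genes 64.1%), 30 of 45 in neurons (66.7%, all genes 65.0%) and 29 of 42 in mESC (69.0%, all genes 73.0%).

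**Figure D1:**
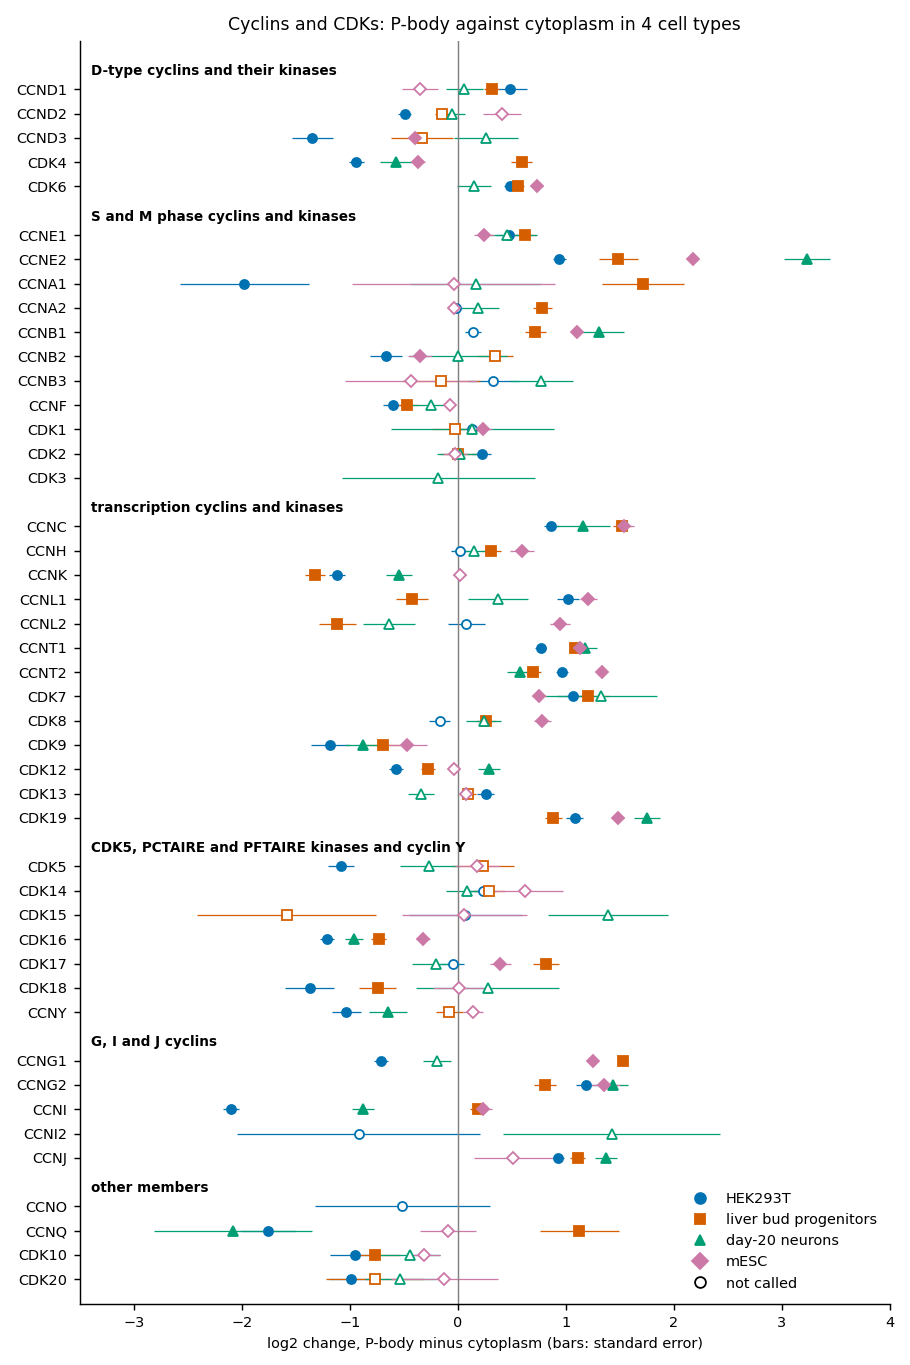
Log2 change from cytoplasm to P-body (x axis, bars are the SE) for each member (y axis, grouped by role) in HEK293T, liver bud progenitors, day-20 neurons and mESC, with open symbols for changes that were not called and members at or under 3 counts in a fraction left out. CCNC, CCNE2, CCNG2, CCNT1, CCNT2 and CDK19 lie right of 0 and CDK9 and CDK16 left of 0 in all 4 cell types, and CCNG1 and CCNI change sides.

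Of 42 members tested in all 4 cell types (mouse symbols matched ignoring case), 6 were enriched in each (CCNC, CCNE2, CCNG2, CCNT1, CCNT2 and CDK19) and 2 were depleted in each (CDK9 and CDK16). All genes tested in the 4 gave 10.2% and 5.26%, against 14.3% and 4.76% of the members. A further 8 were enriched in 1 cell type and depleted in another (19.0%, all genes 14.4%): CCNA1, CCNG1, CCNI, CCNL1, CCNL2, CCNQ, CDK4 and CDK12. In all, 3 were called in none, namely CCNB3, CDK14 and CDK15.

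Transcription kinases and their cyclins held 4 of the 6 members that were enriched in each cell type. Of 13 members in this branch, 7 were enriched and 3 depleted in HEK293T, 7 and 5 in liver bud progenitors, 5 and 2 in neurons, and 9 and 1 in mESC. The enriched share was 53.8% in both HEK293T and liver bud progenitors, then 38.5% for neurons and 69.2% for mESC. All genes whose mean reached 20 CPM gave 50.9%, 53.4%, 31.1% and 54.1%, so the first 2 shares were near those of abundant genes. The depleted shares were 23.1%, 38.5%, 15.4% and 7.69%, beside 34.0%, 27.4%, 37.4% and 25.0% of such genes. The branch itself was not cut at that level, and CDK9 was below it in HEK293T. The median change was 0.26, 0.26, 0.29 and 0.78 in the same order. The subunits of P-TEFb went in opposite directions. CCNT1 encodes cyclin T1, the usual partner of CDK9. In HEK293T its levels were 973 and 934 CPM in P-bodies and 561 and 560 CPM in cytoplasm (log2 change 0.77 ± 0.05 SE, adjusted p = 2.13e-20, edgeR). Those of liver bud progenitors were 545 and 537 CPM against 266 and 245 CPM (1.08 ± 0.06, adjusted p = 1.22e-25, edgeR). In neurons they were 170 and 178 CPM against 79.7 and 74.5 CPM (1.18 ± 0.11, adjusted p = 3.37e-06, edgeR). Both P-body libraries were above both cytoplasm libraries in each cell type, mESC included (710 and 690 CPM against 325 and 314 CPM). CCNT2, the other cyclin T gene, was also enriched in each. It reached 487 and 500 CPM in HEK293T P-bodies against 242 and 263 CPM in cytoplasm (0.97 ± 0.06, adjusted p = 1.72e-22, edgeR), and 1027 and 1021 CPM against 411 and 403 CPM in mESC (1.33 ± 0.04, adjusted p = 3.02e-19, edgeR). In neurons its change was 0.58 and its call was lost without cytoplasm replicate 1 (0.45, adjusted p = 0.0557, edgeR), and its change was -0.17 without GC and length trends, which also ended the liver bud call (0.04, adjusted p = 0.657, edgeR).

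The kinase of the same complex, CDK9, was on the other side of 0 in each cell type. Its levels were 9.67 and 6.21 CPM in HEK293T P-bodies against 16.1 and 19.6 CPM in cytoplasm, a log2 change of -1.18 ± 0.18 SE. Liver bud progenitors had 15.7 and 18.5 CPM against 27.2 and 28.3 CPM (-0.70 ± 0.15, adjusted p = 0.000116, edgeR), and in neurons 27.1 and 25.7 CPM against 46.4 and 50.7 CPM (-0.88 ± 0.17, adjusted p = 0.00165, edgeR). No fraction overlapped the other. The mouse gene was lower too, at 9.15 and 8.96 CPM against 11.2 and 13.9 CPM (-0.47 ± 0.18, adjusted p = 0.0405, edgeR), but this call was lost without P-body replicate 1 (-0.48, adjusted p = 0.129), without P-body replicate 2 (-0.43, adjusted p = 0.178) and without cytoplasm replicate 2 (-0.30, adjusted p = 0.279, edgeR).

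**Figure D2:**
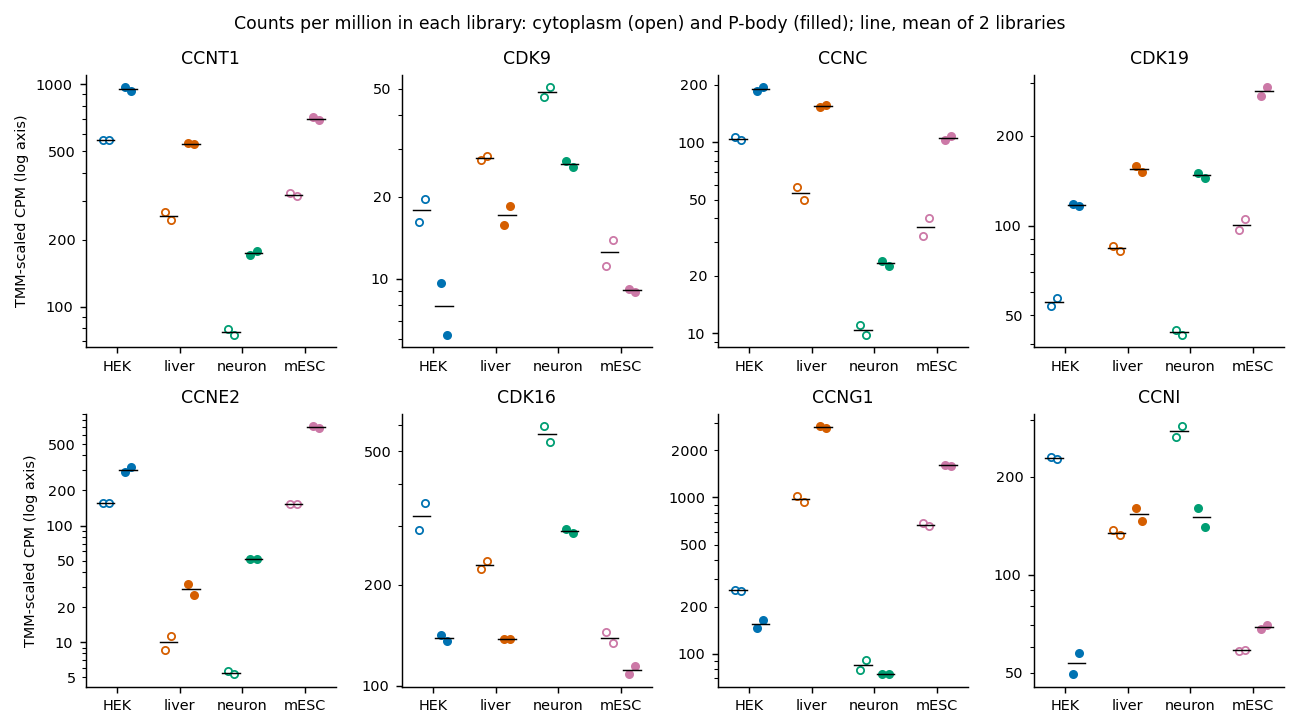
TMM-scaled CPM (y axis, log scale) of 8 members in each of the 2 cytoplasm libraries (open) and 2 P-body libraries (filled) of HEK293T, liver bud progenitors, neurons and mESC (x axis), with a line at each mean. CCNT1, CCNC, CDK19 and CCNE2 are higher in P-bodies in every cell type and CDK9 and CDK16 lower, while CCNG1 is higher in liver bud progenitors and mESC and lower in HEK293T.

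The Mediator kinase module gave a different picture. CCNC, which encodes cyclin C, was enriched everywhere, with log2 changes of 1.54 in mESC, 1.16 in neurons, 1.52 in liver bud progenitors and 0.87 in HEK293T. In liver bud progenitors its levels were 154 and 157 CPM in P-bodies and 58.6 and 50.0 CPM in cytoplasm (SE 0.08, adjusted p = 5.76e-25, edgeR). The neuron call was lost without cytoplasm replicate 2 (1.06, adjusted p = 0.0636, edgeR) and without GC and length trends (0.38). CDK19 followed the cyclin. In neurons it had 150 and 145 CPM in P-bodies and 44.7 and 42.9 CPM in cytoplasm (1.75 ± 0.12 SE, adjusted p = 2.24e-07, edgeR), and its change was 1.08 in HEK293T, 0.89 in liver bud progenitors and 1.49 in mESC, each called. CDK8, the paralog of CDK19, changed less. It was called in mESC (0.78 ± 0.08, adjusted p = 8.88e-09, edgeR), where the change was 0.05 and no longer called without GC and length trends, and weakly in liver bud progenitors (0.26 ± 0.09, adjusted p = 0.0173, edgeR), the latter lost without P-body replicate 1 (0.20, adjusted p = 0.236) or cytoplasm replicate 2 (0.16, adjusted p = 0.290, edgeR) and turned to -0.01 by removing GC and length trends. In HEK293T and neurons CDK8 changed by -0.17 and 0.24, with 95% intervals of -0.36 to 0.03 and -0.08 to 0.56.

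CDK7, the kinase of the general factor TFIIH, was enriched by 1.06 in HEK293T, 1.20 in liver bud progenitors and 0.75 in mESC, all called. The liver bud call was lost without GC and length trends (0.23, adjusted p = 0.453, edgeR). In neurons it had 4.74 and 14.6 CPM in P-bodies against 4.63 and 3.10 CPM in cytoplasm, and the change of 1.33 ± 0.52 SE did not pass (adjusted p = 0.0756, edgeR). Its cyclin, CCNH, was closer to 0, at 0.02 in HEK293T with a 95% interval of -0.13 to 0.16. It was called in liver bud progenitors (0.31) and mESC (0.59), but removing GC and length trends gave -0.80 and -0.44, and the liver bud call was also lost without P-body replicate 2 (0.27, adjusted p = 0.0869, edgeR).

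CCNK, the cyclin of CDK12 and CDK13, was among the most depleted members of human cells. Its levels were 65.5 and 65.2 CPM in HEK293T P-bodies and 135 and 148 CPM in cytoplasm (-1.12 ± 0.08 SE, adjusted p = 5.79e-20, edgeR). Liver bud progenitors had 41.8 and 44.5 CPM against 104 and 111 CPM (-1.32 ± 0.09, adjusted p = 2.35e-20, edgeR), and in neurons the change was smaller (-0.55 ± 0.12, adjusted p = 0.00359, edgeR). In mESC it was 0.02 and not called, though -0.38 and called with library size as the only scaling. Its kinases stayed nearer to 0. CDK12 was depleted in HEK293T and liver bud progenitors (-0.57 and -0.28) and slightly enriched in neurons (0.29 ± 0.10, adjusted p = 0.0483, edgeR). The neuron call was lost without P-body replicate 2 (0.27, adjusted p = 0.0524), cytoplasm replicate 1 (0.22, adjusted p = 0.426) or cytoplasm replicate 2 (0.34, adjusted p = 0.156, edgeR). CDK13 was called only in HEK293T (0.26 ± 0.08), where it was lost without P-body replicate 2 (0.24, adjusted p = 0.0697, edgeR) and was -0.03 without GC and length trends.

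The cyclin L genes, whose products act with CDK11 in splicing, differed between cell types. CCNL1 was enriched by 1.02 in HEK293T and 1.21 in mESC and depleted in liver bud progenitors (-0.42 ± 0.14, adjusted p = 0.0137, edgeR), a call that was lost without P-body replicate 2 (-0.22, adjusted p = 0.355, edgeR). CCNL2 was depleted in liver bud progenitors, with 11.9 and 11.5 CPM in P-bodies against 24.2 and 26.4 CPM in cytoplasm (-1.12 ± 0.17, adjusted p = 7.34e-08, edgeR), and enriched in mESC (0.95 ± 0.09, adjusted p = 3.09e-09, edgeR).

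**Figure D3:**
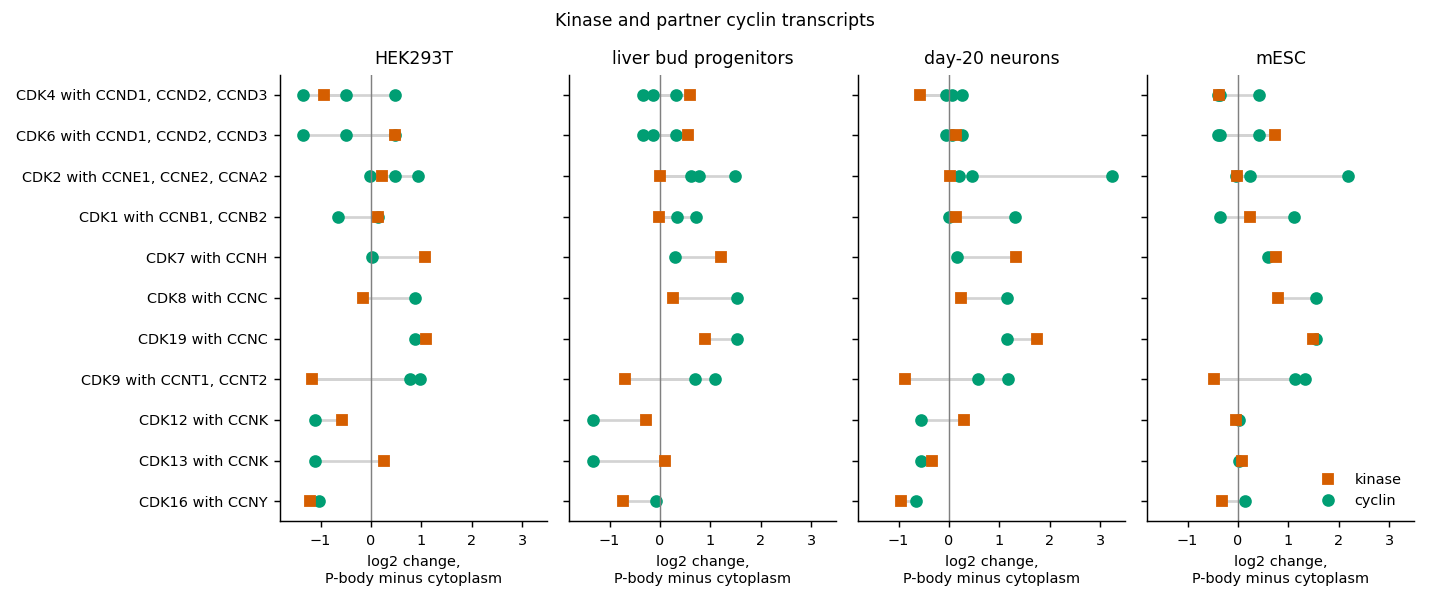
Log2 change from cytoplasm to P-body (x axis) of 11 kinases (squares) and of their partner cyclins (circles, joined by a line, each pair a row) in the 4 cell types, kinase drawn on top where they coincide. CDK9 lies left of 0 and CCNT1 and CCNT2 right of 0 in every panel, with CDK9 at -1.18 and CCNT1 at 0.77 in HEK293T, while CDK19 and CCNC lie together on the right.

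Among the S and M phase members, CCNE2 stood out. It encodes cyclin E2, which with CDK2 starts DNA replication. Its levels were 289 and 315 CPM in HEK293T P-bodies and 157 CPM in both cytoplasm libraries (0.94 ± 0.06 SE, adjusted p = 1.8e-20, edgeR). Liver bud progenitors had 31.4 and 25.3 CPM against 8.64 and 11.4 CPM (1.49 ± 0.18, adjusted p = 5.09e-11, edgeR). In neurons, P-bodies had 52.0 and 51.4 CPM and cytoplasm 5.67 and 5.30 CPM, a 9.41-fold difference (3.23 ± 0.22, adjusted p = 1.9e-07, edgeR). The mouse gene had 711 and 684 CPM against 154 CPM in both cytoplasm libraries (2.18 ± 0.04, adjusted p = 3.62e-21, edgeR). P-body libraries were above cytoplasm libraries in each cell type, with replicates close together, and the call held under every alternative tried in each cell type. The paralog CCNE1 changed less, by 0.47, 0.62, 0.46 and 0.24 in HEK293T, liver bud progenitors, neurons and mESC. It was called in HEK293T and liver bud progenitors, not called in neurons (adjusted p = 0.237, edgeR), and called in mESC at adjusted p = 0.0374 (edgeR). That call was lost without P-body replicate 1 (0.22, adjusted p = 0.185), P-body replicate 2 (0.29, adjusted p = 0.0548) or cytoplasm replicate 1 (0.21, adjusted p = 0.118, edgeR), and became -0.16 with library size as the only scaling.

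The B-type cyclins, partners of CDK1 at mitosis, did not move together. CCNB1 was enriched in 3 cell types. It had 82.5 and 79.7 CPM in liver bud P-bodies against 52.7 and 46.0 CPM in cytoplasm (0.72 ± 0.10, adjusted p = 1.93e-09, edgeR), 27.5 and 32.9 CPM against 12.7 and 11.6 CPM in neurons (1.31 ± 0.23, adjusted p = 0.000745, edgeR), and 517 and 487 CPM against 237 and 229 CPM in mESC (1.11 ± 0.04, adjusted p = 2.62e-16, edgeR). In HEK293T it changed by 0.14 and was not called. The liver bud change was 0.00 without GC and length trends. CCNB2 was depleted in HEK293T (-0.66 ± 0.15, adjusted p = 0.000153, edgeR) and mESC (-0.35 ± 0.11, adjusted p = 0.0114, edgeR) and not called in the other two. The HEK293T call was lost with all human libraries in a single fit (-0.54, adjusted p = 0.0684, edgeR), and the mESC call with DESeq2 and without P-body replicate 1 (-0.33, adjusted p = 0.0810) or P-body replicate 2 (-0.35, adjusted p = 0.0657, edgeR). CCNA2, the S and G2 cyclin, was enriched in liver bud progenitors (0.78 ± 0.09, adjusted p = 1.28e-11, edgeR), but not without GC and length trends (0.19, adjusted p = 0.0842, edgeR). In HEK293T and mESC it was measured precisely at -0.02 and -0.03, with 95% intervals of -0.13 to 0.09 and -0.12 to 0.06.

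The kinases of this branch were flat by comparison. CDK1 was not called in any human cell type, with 95% intervals of -0.12 to 0.38 in HEK293T, -0.43 to 0.38 in liver bud progenitors and -1.35 to 1.62 in neurons, where it had at most 3.26 CPM. The mouse Cdk1 change was 0.23 (adjusted p = 0.0320, edgeR). It was lost without P-body replicate 2 (0.23, adjusted p = 0.0772) or cytoplasm replicate 1 (0.11, adjusted p = 0.346, edgeR), and was -0.17 with library size only and -0.04 without GC and length trends. CDK2 was called only in HEK293T (0.22 ± 0.09, adjusted p = 0.0328, edgeR), a call that failed without P-body replicate 1 (0.21, adjusted p = 0.156), P-body replicate 2 (0.24, adjusted p = 0.104) or cytoplasm replicate 1 (0.22, adjusted p = 0.0837, edgeR). CCNF, the substrate receptor of a ubiquitin ligase, was depleted in HEK293T (-0.60) and liver bud progenitors (-0.47), and both became positive (0.07 and 0.02) without GC and length trends. CCNA1, the germ line cyclin A, was called lower in HEK293T P-bodies (-1.98), with 3.86 CPM in cytoplasm replicate 1 and 0.340 CPM in replicate 2. Without cytoplasm replicate 1 the change was 0.66 (adjusted p = 0.717, edgeR).

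D-type cyclins and their kinases were split. In HEK293T 2 of 5 were enriched and 3 depleted, in liver bud progenitors 3 and 0, in neurons 0 and 1, and in mESC 1 and 2. All genes gave 19.3% and 22.8% in HEK293T and 21.4% and 17.1% in liver bud progenitors. They gave 14.6% and 14.1% in neurons and 25.8% and 20.6% in mESC. Genes whose mean reached 20 CPM gave 50.9% and 34.0%, 53.4% and 27.4%, 31.1% and 37.4%, and 54.1% and 25.0% in the same order. With 5 genes the shares of this group are coarse. CDK6 was enriched in HEK293T, with 526 CPM in both P-body libraries against 391 and 364 CPM in cytoplasm (0.48 ± 0.05, adjusted p = 2.58e-11, edgeR), in liver bud progenitors (0.56 ± 0.06, adjusted p = 6.52e-12, edgeR) and in mESC (0.74 ± 0.06, adjusted p = 3.97e-11, edgeR), and changed by 0.15 in neurons without passing. Without GC and length trends the HEK293T change was 0.04 and no longer called (adjusted p = 0.545, edgeR). CDK4, which has the same partners, was depleted in 3 cell types. It had 88.0 and 80.2 CPM in HEK293T P-bodies against 153 and 169 CPM in cytoplasm (-0.94 ± 0.07, adjusted p = 2.11e-17, edgeR). The mouse gene had 97.5 and 102 CPM against 126 and 132 CPM (-0.37 ± 0.06, adjusted p = 2.33e-05, edgeR). In neurons the change was -0.57 ± 0.15 (adjusted p = 0.0102, edgeR), lost without cytoplasm replicate 1 (-0.63, adjusted p = 0.0549) or cytoplasm replicate 2 (-0.55, adjusted p = 0.112, edgeR), with library size only (-0.41) and without GC and length trends (-0.22). In liver bud progenitors it was enriched, with 74.8 and 74.1 CPM against 48.0 and 50.6 CPM (0.59 ± 0.10, adjusted p = 3.13e-07, edgeR).

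Of the D-type cyclins, CCND3 was depleted in HEK293T (8.02 and 4.93 CPM against 15.3 and 17.4 CPM, -1.35 ± 0.19, adjusted p = 1.22e-08, edgeR). In mESC, where it was the most abundant D-type cyclin per kilobase of transcript in cytoplasm, it had 121 and 133 CPM against 185 and 150 CPM (-0.40 ± 0.07, adjusted p = 9.21e-05, edgeR), a call that was lost without GC and length trends (-0.10, adjusted p = 0.353, edgeR). CCND2 was depleted in HEK293T (-0.49 ± 0.06, adjusted p = 1.15e-09, edgeR) and not called elsewhere. CCND1 was slightly enriched in HEK293T (0.49) and liver bud progenitors (0.32), where the call did not hold under every alternative. The HEK293T call was lost without P-body replicate 1 (0.44, adjusted p = 0.0667) or cytoplasm replicate 1 (0.37, adjusted p = 0.110, edgeR).

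CDK16 was depleted in every cell type. It belongs to the PCTAIRE kinases and is activated by cyclin Y. It had 142 and 136 CPM in HEK293T P-bodies and 291 and 350 CPM in cytoplasm (-1.21 ± 0.07 SE, adjusted p = 5.36e-24, edgeR). Liver bud progenitors had 138 CPM in both P-body libraries against 223 and 236 CPM (-0.73 ± 0.07, adjusted p = 1.41e-14, edgeR), and in neurons 293.5 and 284.9 CPM against 594 and 532 CPM (-0.96 ± 0.09, adjusted p = 2.51e-06, edgeR). The smallest change was that of mESC, with 108 and 115 CPM against 145 and 134 CPM (-0.32 ± 0.06, adjusted p = 0.000114, edgeR). The fractions did not overlap anywhere. Its paralog CDK17, with 2 of 7 helix codons ending in G or C, was enriched in liver bud progenitors (0.82 ± 0.12, adjusted p = 1.9e-08, edgeR) and mESC (0.39 ± 0.10, adjusted p = 0.00202, edgeR). The mESC change became -0.01 with library size only and -0.14 without GC and length trends. The liver bud call was lost without those trends (0.22, adjusted p = 0.174, edgeR). CDK18 was depleted in HEK293T (-1.37) and liver bud progenitors (-0.74), the latter not without the trends (-0.21, adjusted p = 0.403, edgeR). CCNY, the cyclin that activates CDK16, was depleted in HEK293T (-1.03 ± 0.13, adjusted p = 7.49e-10, edgeR) and neurons (-0.65 ± 0.18, adjusted p = 0.0151, edgeR). The neuron call was lost without cytoplasm replicate 1 (-0.74, adjusted p = 0.0740) or cytoplasm replicate 2 (-0.58, adjusted p = 0.209, edgeR). CDK5, the kinase best known from neurons, was depleted in HEK293T alone (21.9 and 19.5 CPM against 43.8 CPM in both cytoplasm libraries, -1.08 ± 0.12, adjusted p = 1.08e-11, edgeR). That change became 0.08 without GC and length trends. In neurons CDK5 changed by -0.26, with a 95% interval of -0.79 to 0.26.

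The G, I and J cyclins differed among themselves. CCNG2, an atypical cyclin induced in arrested cells, was enriched by 1.19, 0.81, 1.43 and 1.36 in HEK293T, liver bud progenitors, neurons and mESC, each called under every alternative tried. CCNJ was enriched in the 3 human cell types. It had 548 and 586 CPM in HEK293T P-bodies against 294 and 302 CPM (0.93 ± 0.06, adjusted p = 3.05e-22, edgeR) and 208 and 226 CPM in neuron P-bodies against 83.3 and 84.5 CPM (1.37 ± 0.10, adjusted p = 6.4e-07, edgeR). The mouse gene had at most 3.54 CPM and was not called. CCNG1 is a target of p53 and the most abundant member per kilobase in liver bud progenitors. There it had 2853 and 2784 CPM in P-bodies against 1017 and 936 CPM in cytoplasm (1.53 ± 0.04, adjusted p = 4.15e-40, edgeR), and in mESC 1624 and 1579 CPM against 684 and 659 CPM (1.25 ± 0.04, adjusted p = 4.81e-19, edgeR). In HEK293T the order was the opposite, with 147 and 164 CPM against 256 and 254 CPM (-0.71 ± 0.06, adjusted p = 3.85e-15, edgeR), and in neurons it changed by -0.19 without passing. CCNI, another atypical cyclin, had 49.4 and 57.3 CPM in HEK293T P-bodies against 230 and 228 CPM in cytoplasm, a 4.28-fold difference (-2.10 ± 0.07, adjusted p = 5.22e-33, edgeR). In neurons it had 161 and 140 CPM against 265 and 286 CPM (-0.87 ± 0.10, adjusted p = 2.5e-05, edgeR). In liver bud progenitors and mESC CCNI changed by 0.19 and 0.24. The liver bud call was lost without P-body replicate 1 (0.11, adjusted p = 0.440) or cytoplasm replicate 2 (0.12, adjusted p = 0.315, edgeR) and became -0.17 without GC and length trends. The mESC call was lost without P-body replicate 2 (0.24, adjusted p = 0.0506, edgeR) and became -0.16 with library size only.

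The remaining members were rare. CDK10 was depleted in HEK293T (-0.95) and liver bud progenitors (-0.76), the latter lost without cytoplasm replicate 2 (-0.71, adjusted p = 0.0561, edgeR). CDK20 was depleted in HEK293T (-0.99 ± 0.20, adjusted p = 2.69e-05, edgeR), but not without GC and length trends (-0.40, adjusted p = 0.107, edgeR). CCNQ, the cyclin of CDK10, was depleted in HEK293T (2.61 and 2.21 CPM against 8.84 and 7.41 CPM) and called higher in liver bud P-bodies (5.27 and 5.07 CPM against 1.76 and 2.91 CPM) and lower in those of neurons (1.43 and 0.494 CPM against 5.29 and 2.90 CPM). The liver bud call was lost without cytoplasm replicate 1 (0.82, adjusted p = 0.149), and the neuron call without cytoplasm replicate 1 (-1.59, adjusted p = 0.474) or cytoplasm replicate 2 (-2.46, adjusted p = 0.102, edgeR). CDK3 had no count in any liver bud library. CCNO was at 0 in both cytoplasm libraries of neurons and in one of its P-body libraries, and no change could be read at this depth.

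Liver bud progenitors and neurons came from the same stem cell line and carry the same RNA label, so their P-body enrichment could be compared within 1 fit of 8 libraries. The difference was called for 12 of 45 members: 6 were more enriched in neurons (13.3%, all genes 9.21%) and 6 less (13.3%, all genes 8.50%). CCNE2 (neuron minus liver bud 1.73 ± 0.29 on the log2 scale, adjusted p = 0.000609, edgeR) and CDK19 (0.86 ± 0.13, adjusted p = 0.000350, edgeR) were more enriched in neurons. CCNG1 (-1.73 ± 0.10, adjusted p = 5.48e-08, edgeR) and CCNI (-1.07 ± 0.13, adjusted p = 3.94e-05, edgeR) were less so, and CDK4 differed by -1.18 ± 0.17 (adjusted p = 0.000138, edgeR). These 5 and CCNK were called under every alternative. CDK12, CDK13, CDK15, CDK17, CCNG2 and CCNQ were each lost in at least 1 alternative. All genes had a median difference of 0.23, which rose to 0.58 with library size only, where 12 members were higher and 4 lower. The neuron P-body replicates were further apart than other replicates, with a chi-square of 24.8 per gene against 2.15 to 6.69 in the other groups. Without neuron P-body replicate 1 the counts were 7 higher and 11 lower, and without replicate 2 they were 8 higher and 12 lower. Without liver bud P-body replicate 1 only 3 were lower, and without neuron cytoplasm replicate 1 only 3 were higher. The alternatives that leave out a library assume that the lone library left in its group varies like the others.

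**Figure D4:**
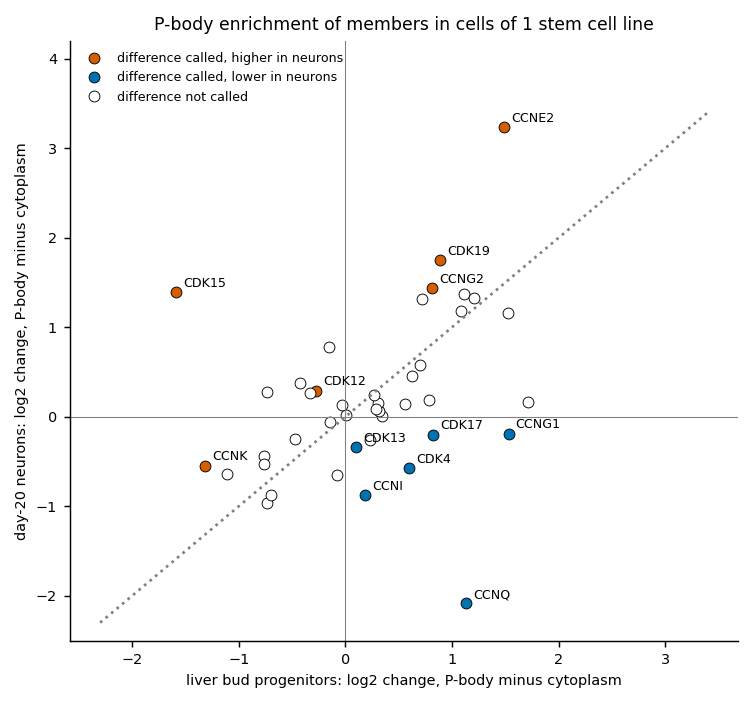
Log2 change from cytoplasm to P-body of each member in liver bud progenitors (x axis) and day-20 neurons (y axis), filled where the difference between the cell types was called, with the line of equal change dotted. CCNE2 and CDK19 lie above the line and CCNG1, CDK4 and CCNI below it, on the enriched side in liver bud progenitors and on the depleted side in neurons.

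Differences with HEK293T carry the difference in RNA type. Against liver bud progenitors, 9 of 45 members were more enriched in HEK293T (20.0%, all genes 15.0%) and 12 less (26.7%, all genes 12.5%). CCNL1 (1.67 ± 0.18, adjusted p = 5.28e-11, edgeR) and CCNT2 (0.50 ± 0.09, adjusted p = 3.31e-05, edgeR) were more enriched, and CCNG1 (-2.01 ± 0.08, adjusted p = 2.13e-26, edgeR) and CCNI (-2.06 ± 0.11, adjusted p = 1.94e-20, edgeR) less. With library size only, 4 were higher and 18 lower. Against neurons, 3 were more enriched in HEK293T (6.67%, all genes 6.19%) and 6 less (13.3%, all genes 6.35%). CDK13 (0.74 ± 0.15, adjusted p = 0.00279, edgeR) and CCNT2 (0.53 ± 0.13, adjusted p = 0.0109, edgeR) were higher, and CCNE2 (-2.15 ± 0.16, adjusted p = 3.84e-07, edgeR) and CCNI (-1.08 ± 0.14, adjusted p = 6.51e-05, edgeR) lower. With library size only these counts became 0 and 18. The CCNT2 difference from neurons was lost without HEK293T P-body replicate 2 (0.50, adjusted p = 0.0782), HEK293T cytoplasm replicate 1 (0.49, adjusted p = 0.0780) or neuron cytoplasm replicate 2 (0.41, adjusted p = 0.0730, edgeR). All 3 comparisons share libraries in pairs.

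In the cytoplasm, 21 of 45 members were lower in neurons than in liver bud progenitors (46.7%, all genes 25.8%) and 15 were higher (33.3%, all genes 26.0%). With library size only these counts were 25 and 9. Of 11 S and M phase genes, 7 were lower in neurons and 4 higher, and of 13 in the transcription branch 9 were lower and 1 higher. Without GC and length trends, the lower calls of CCNE2 (0.43), CCNH (0.64), CCNL1 (0.29) and CCNT2 (0.58) turned positive. The lower calls of CCNE2, CCNF, CCNT2, CDK7 and CDK8 depended on single libraries. So did the higher calls of CCNA1, CCND3, CCNQ, CDK2 and CDK10, of which CCNA1 and CDK2 are S and M phase genes. CDK3, another of that group, had no count in liver bud libraries. CDK1 had 2.04 and 2.16 CPM in neurons against 11.3 and 11.5 CPM (-2.43 ± 0.31, adjusted p = 1.93e-10, edgeR) and CCNB1 13.8 and 12.5 CPM against 49.1 and 43.0 CPM (-1.81 ± 0.16, adjusted p = 9.15e-17, edgeR). CCNG1 had 85.2 and 98.4 CPM against 948 and 875 CPM (-3.31 ± 0.08, adjusted p = 3.78e-48, edgeR), and CDK6 62.4 and 61.9 CPM against 217 and 222 CPM (-1.82 ± 0.09, adjusted p = 3.41e-29, edgeR). Higher in neurons were CDK16, with 642 and 575 CPM against 207 and 220 CPM (1.51 ± 0.08, adjusted p = 7.35e-29, edgeR), CCNI, with 286 and 309 CPM against 128 and 124 CPM (1.24 ± 0.08, adjusted p = 2.18e-22, edgeR), and CDK5, with 18.1 and 15.2 CPM against 4.37 and 6.15 CPM (1.65 ± 0.24, adjusted p = 9.41e-09, edgeR). No library of 1 cell type overlapped the other for these genes. In these bulk samples, fewer cells of a type and less RNA per cell cannot be told apart.

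Levels between genes were compared per kilobase of the coding transcript, as RPKM, the CPM per kilobase. Here the CPM were scaled by library total alone, not by TMM, so their ratios differ from the log2 changes above. In HEK293T cytoplasm CDK16 (111 ± 15.0 SD, n = 2) and CCNG1 (109 ± 0.169) led the members and did not differ beyond their spread, followed by CCNA2 (106 ± 0.873). In HEK293T P-bodies CCNJ (137 ± 7.11) and CCNT1 (134 ± 3.38) led and overlapped each other. CCNG1 was first in liver bud cytoplasm (426 ± 28.4) and P-bodies (1081 ± 14.1), with CDK16 next in cytoplasm (81.0 ± 2.63) and CCNT1 next in P-bodies (74.7 ± 0.526). In neurons CDK16 was first in both cytoplasm (176 ± 7.97) and P-bodies (102 ± 0.838). In mESC Ccng1 was first in cytoplasm (220 ± 7.13) and P-bodies (397 ± 6.48), and Ccne2 was at 58.9 ± 0.584 in cytoplasm and 202 ± 4.83 in P-bodies, where it was the next after Ccng1.

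Enriched members tended to have AT-rich transcripts. The median GC content of the longest transcript was 40.7% for the 14 enriched and 51.9% for the 18 depleted members in HEK293T, 41.6% and 51.9% in liver bud progenitors, 40.7% and 52.0% in neurons, and 44.03% and 53.2% in mESC. Across members, the Spearman rho between GC content and the log2 change was -0.71 in mESC (42 genes), -0.68 in HEK293T (45), -0.47 in liver bud progenitors (44) and -0.40 in neurons (45). Across all genes with a transcript (92.5% or more of those tested), rho was -0.23, -0.33, -0.36 and -0.30 in the same order. Where only genes whose mean reached 20 CPM were kept, it was -0.72, -0.51, -0.72 and -0.68 over all such genes and -0.80, -0.59, -0.58 and -0.62 over the members, so at that level the members were near the other genes, and on the weaker side in liver bud progenitors and neurons. At wobble positions the members gave -0.52, -0.53, -0.57 and -0.37. Where the mean reached 20 CPM, the members gave -0.49, -0.45, -0.66 and -0.57 there. All such genes with a known wobble value (97.2% or more) gave -0.62, -0.48, -0.65 and -0.67, so the relation was not particular to the members. These are descriptions across genes of the same libraries, which are not independent replicates, and they share depth and base composition. CCNT1 and CDK9 differed in the same way (40.7% and 55.1% GC), as did CDK17 and CDK16 (40.2% and 57.0%). CCNG1, with 38.0% GC, was depleted in HEK293T all the same, and CCNK and CCNI were depleted there with 46.3% and 44.8%. With the trends over all genes in GC content and transcript length taken out, CCNT1 kept a change of 0.32, 0.68, 0.64 and 0.67 in HEK293T, liver bud progenitors, neurons and mESC, and CDK9 one of -0.48, -0.47, -0.35 and -0.51, of which the neuron change was no longer called (adjusted p = 0.148, edgeR).

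**Figure D5:**
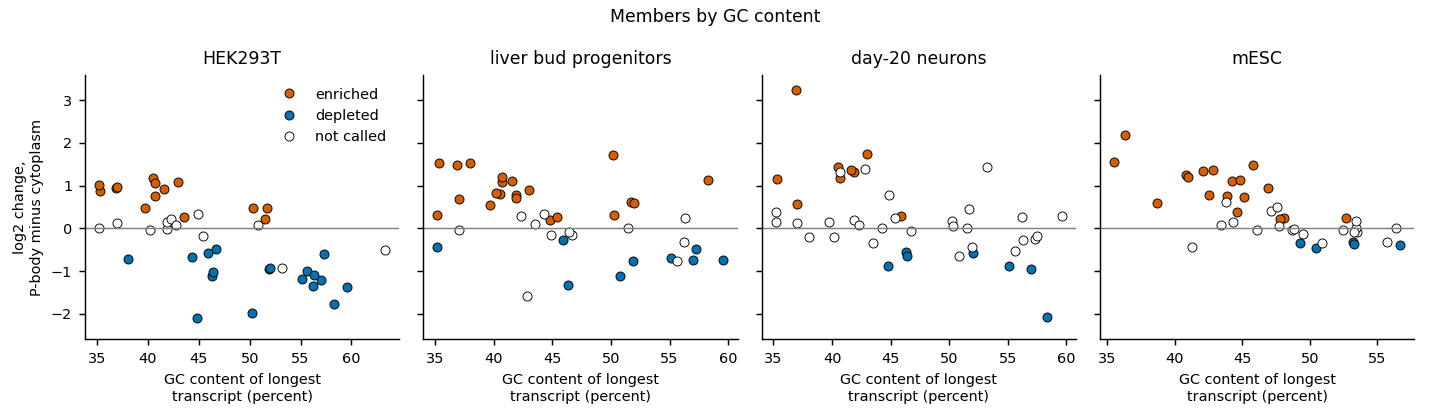
Log2 change from cytoplasm to P-body (y axis) against the GC content of the longest transcript (x axis, percent) for each member above 3 counts in both fractions, in the 4 cell types, filled by call. Enriched members sit mostly below 45% GC and depleted members mostly above it, with CCNG1 (38.0% GC, depleted in HEK293T) among the exceptions.

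Genes that act on the cyclins and CDKs, or downstream of them, were read from lists. The lists were not cut by abundance. Their counts stand beside 19.3% enriched and 22.8% depleted of all genes in HEK293T, 21.4% and 17.1% in liver bud progenitors, 14.6% and 14.1% in neurons, and 25.8% and 20.6% in mESC, and beside the higher shares of genes whose mean reached 20 CPM (mESC 54.1% and 25.0%, neurons 31.1% and 37.4%, liver bud progenitors 53.4% and 27.4%, HEK293T 50.9% and 34.0%). The RB and E2F group lies downstream of CDK4, CDK6 and CDK2. Of its 13 genes, 7 were enriched and 5 depleted in HEK293T, 9 and 2 in liver bud progenitors, 7 and 0 in neurons, and 10 and 1 in mESC. The enriched share was 53.8% in HEK293T, near that of abundant genes, 53.8% in neurons, 69.2% in liver bud progenitors and 76.9% in mESC. E2F8 (1.27 ± 0.07) led in HEK293T, E2F7 in liver bud progenitors (0.80 ± 0.07) and neurons (2.34 ± 0.11), and Rbl1 in mESC (1.22 ± 0.06), while E2F1 was the most significant depleted gene in HEK293T (-1.21 ± 0.15) and mESC (-0.86 ± 0.14). Of 8 CDK inhibitors, 2 were enriched and 3 depleted in HEK293T, 2 and 1 in liver bud progenitors, 1 and 1 in neurons, and 2 and 0 in mESC. CDKN1B, which encodes p27, was the leading enriched inhibitor in all 4 (0.85, 0.72, 0.91 and 0.64). Of 6 kinases and phosphatases acting on CDKs, 1 was enriched and 3 depleted in HEK293T, 1 and 1 in liver bud progenitors, 0 and 1 in neurons, and 1 and 1 in mESC. WEE1, which holds CDK1 inactive, was enriched in HEK293T (0.29), liver bud progenitors (0.36) and mESC (0.56), and CDC25B, which activates it, was depleted in HEK293T (-1.22), liver bud progenitors (-0.47) and neurons (-0.41). Pkmyt1, also a kinase of this list, was the leading depleted gene in mESC (-0.77, mean 5.87 CPM).

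The machinery that destroys cyclins gave 8 enriched and 13 depleted of 25 genes in HEK293T, 15 and 3 in liver bud progenitors, 5 and 6 in neurons, and 7 and 2 of 24 in mESC. The enriched shares of 29.2% in mESC, 20.0% in neurons and 32.0% in HEK293T lay between those of all genes and of abundant genes, and the depleted share was 52.0% in HEK293T. FBXO5, an inhibitor of the anaphase-promoting complex, led the enriched genes in HEK293T (1.14 ± 0.05), liver bud progenitors (1.63 ± 0.08) and neurons (3.27 ± 0.18), and CKS1B led the depleted ones in HEK293T (-1.70 ± 0.08). Of 12 partners and regulators of CDK complexes, 6 were enriched and 3 depleted in HEK293T, 6 and 2 in liver bud progenitors, 4 and 4 in neurons, and 2 and 2 in mESC. LARP7, which holds P-TEFb inactive, was enriched by 1.54, 1.47 and 2.85 in HEK293T, liver bud progenitors and neurons, and MED12 of the Mediator kinase module was depleted in the same cell types (-1.48, -1.46 and -0.89). Of 10 relatives that the symbol rule leaves out, such as CDK11A and CDK11B, 5 were enriched and 0 depleted in HEK293T, 4 and 2 in liver bud progenitors, and 1 and 0 in neurons, and of the 8 in the mouse 3 and 0. CDK11A and CDK11B are near-identical copies, so their counts are uncertain.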

How the data were processed

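RNA of sorted P-bodies and of cytoplasm was sequenced in 16 libraries. The authors deposited whole-number counts per gene symbol, 1 table for hg38 and 1 for mm10, with a minimum of 10 counts per gene. The study's methods name nf-core RNA-seq with salmon for snapTotal-seq and HISAT2 with featureCounts for Smart-seq. The tables do not say which made the polyA columns. Tables of the authors' DESeq2 fold changes and p-values were not used. Counts were tested with edgeR 4.0.16 in R 4.3.3 (quasi-likelihood, TMM, all genes with a count, Benjamini-Hochberg, two-sided, threshold 0.05). Differences in enrichment were interactions over 8 libraries. Statistics with fewer than 10 libraries come from this model fitted across all genes. The 95% intervals of log2 changes are normal approximations from the SE.

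Members and lists were chosen with earlier results of these data known. Values in every library are given, per fraction comparison, for the 3 enriched and 3 depleted members with the smallest p at a mean of at least 20 CPM and without overlap (2 per direction for interactions and for cytoplasm), and for fixed partner groups. Other library values were chosen after they were seen. Per list, the called gene with the smallest p in each direction may be named. Lengths and GC content came from GENCODE 44 and M21 and covered 92.5% of human and 97.6% of mouse symbols and all members. Wobble positions were known for 78.5% of human symbols, so that check is void over all human genes. Floors cover counting error only, since reads carry no molecular identifiers, while the intervals come from the model and include its estimate of the spread between libraries. In simulated counts with 200 genes changed, the test recovered between 95.5% and 98.5% in comparisons of 4 libraries and between 82.0% and 83.5% in the interactions. The following were tried as alternatives: filterByExpr, DESeq2 1.42.0, scaling by RLE or by library size alone, the replicate number as a block, no ribosomal RNA genes, GC and length trends removed, all human libraries in a single fit, and leaving out each library. The leading gene of 1 list is not reported here.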

Additional observations from a re-analysis of the deposited data

Results flagged for a closer look

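The change from cytoplasm to P-body differed between cell types for 42 pairs of member and comparison, by an interaction term in edgeR's quasi-likelihood test over 8 libraries at an adjusted p under 0.05. Values are differences of log2 changes.

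Neurons against liver bud progenitors gave 12. CCNE2 (1.73), CCNG2 (0.62), CCNK (0.76), CDK12 (0.56), CDK15 (2.97) and CDK19 (0.86) were more enriched in neurons. CCNG1 (-1.73), CCNI (-1.07), CCNQ (-3.23), CDK13 (-0.44), CDK17 (-1.03) and CDK4 (-1.18) were less so.

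HEK293T against liver bud progenitors gave 21. CCND1 (0.40), CCNG2 (0.61), CCNK (0.43), CCNL1 (1.67), CCNL2 (1.42), CCNT2 (0.50), CDK13 (0.39), CDK19 (0.42) and CDK2 (0.45) were more enriched in HEK293T. CCNA1 (-3.47), CCNA2 (-0.57), CCNB1 (-0.35), CCNB2 (-0.78), CCNC (-0.43), CCNG1 (-2.01), CCNI (-2.06), CCNQ (-2.66), CCNY (-0.72), CDK17 (-0.64), CDK4 (-1.30) and CDK5 (-1.08) were less so. The CCNA1 difference was -0.86 (adjusted p = 0.628, edgeR) without HEK293T cytoplasm replicate 1.

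HEK293T against neurons gave 9. CCNT2 (0.53), CDK13 (0.74) and CDK6 (0.47) were more enriched in HEK293T, and CCNB1 (-1.03), CCND3 (-1.46), CCNE2 (-2.15), CCNI (-1.08), CDK12 (-0.72) and CDK19 (-0.53) were less so. RNA type and cell type cannot be told apart in the differences with HEK293T.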

How the results depend on the processing

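Calls held under every alternative for 22 of 32 members in HEK293T, 15 of 30 in liver bud progenitors, 9 of 16 in neurons, 14 of 23 in mESC, 6 of 12 for neurons against liver bud progenitors, 12 of 21 and 4 of 9 for HEK293T against liver bud progenitors and neurons, and 22 of 36 in cytoplasm. The cause of the changes below was not tested.

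With library size as the only scaling, the median of all genes moved by -0.40 in mESC, 0.17 in neurons, -0.18 in liver bud progenitors, -0.13 in HEK293T, 0.35 for neurons minus liver bud, -0.16 and -0.43 for HEK293T minus liver bud and minus neurons, and -0.37 in cytoplasm. Members called lower became 4 in neurons and 14 in mESC (with 13 higher), members called higher 12 for neurons minus liver bud and 4 for HEK293T minus liver bud (18 lower), 0 higher and 18 lower for HEK293T minus neurons, and 9 higher in cytoplasm. In mESC Ccne1 (-0.16), Ccni (-0.16), Ccnk (-0.38), Ccny (-0.26), Cdk1 (-0.17), Cdk13 (-0.33) and Cdk17 (-0.01) changed sign, as did CCNJ in cytoplasm (-0.36).

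With GC and length trends removed, 13 members were higher in liver bud progenitors and 9 lower in mESC. Signs changed in HEK293T for CCNF (0.07), CCNH (-0.48), CDK13 (-0.03) and CDK5 (0.08), in liver bud progenitors for CCNB1 (-0.00), CCNF (0.02), CCNH (-0.80), CCNI (-0.17) and CDK8 (-0.01), in neurons for CCNH (-0.63) and CCNT2 (-0.17), and in mESC for Ccnh (-0.44), Ccny (-0.42), Cdk1 (-0.04), Cdk13 (-0.34) and Cdk17 (-0.14). They also changed for HEK293T minus liver bud in CCNB1 (0.09), CCNC (0.01) and CCNH (0.31), and in cytoplasm for CCNE2 (0.43), CCNG2 (0.54), CCNH (0.64), CCNL1 (0.29), CCNT2 (0.58) and CDK17 (0.45).

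DESeq2 gave 3 lower in mESC. filterByExpr gave 10 lower in mESC, 4 higher and 19 lower for HEK293T minus liver bud, and 1 higher and 12 lower for HEK293T minus neurons. Without ribosomal RNA genes 5 were higher for HEK293T minus neurons.

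By the study's methods, P-bodies were sorted from a cytoplasmic fraction of which an aliquot was kept, so the fractions can be paired. The labels do not say whether same-numbered libraries are such pairs, and the main tests used no pairing. Deviations of same-numbered replicates had correlations of 0.04 in mESC, 0.02 in neurons, 0.01 in liver bud progenitors and -0.02 in HEK293T. These values do not settle whether the samples were paired. With the replicate block, 10 members were lower for HEK293T minus neurons, and the other counts stayed within 1.5 times.

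Leaving out each library in turn gave, for members called higher and lower, 12 to 14 and 17 to 18 in HEK293T, 19 to 20 and 8 to 9 in liver bud progenitors, 7 to 12 and 4 to 10 in neurons, 16 to 19 and 3 to 5 in mESC, 3 to 8 and 3 to 12 for neurons minus liver bud, 7 to 9 and 10 to 12 for HEK293T minus liver bud, 1 to 4 and 4 to 14 for HEK293T minus neurons, and 11 to 14 and 18 to 20 in cytoplasm. In HEK293T CCNA1 ranged from -2.83 without cytoplasm replicate 2 to 0.66 without cytoplasm replicate 1. Members under about 3 counts in a fraction could not be read at this depth.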
